A study of Homo sapiens with 12 samples.

Results

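RNA of A375 cells given rosiglitazone (RGZ) together with the PPARγ antagonist T0070907 was compared with that of cells given T0070907 alone. The comparison used 6 of the 12 libraries of the experiment: the 3 libraries of the combination (5 μM of RGZ with 2 μM of T0070907) and the 3 libraries of 2 μM of T0070907. All libraries were made after 24 h of treatment, in 3 independent experiments, and each combination library was paired with the T0070907 library of the same experiment number. The other 6 libraries, vehicle (DMSO) and 5 μM of RGZ, gave the RGZ change without T0070907 from the same experiments. A375 is a human line from a metastatic melanoma of the skin, grown in DMEM with FBS, and every group carried the DMSO vehicle. RNA from technical replicates of a condition was pooled within each experiment, so that a library stands for 1 experiment and for 1 cell line only.

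PPARγ is a nuclear receptor that binds DNA as a dimer with RXR and turns on genes of fatty acid uptake, storage and oxidation when an agonist such as RGZ fills its pocket. T0070907 binds covalently to a cysteine in that pocket and recruits corepressors. The related receptors PPARα and PPARδ act on many of the same genes. The question of the comparison was which RNAs RGZ still moved with the antagonist present.

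The deposited values were raw counts per gene. Library totals ran from 8426908 to 9471903 counts in the combination and from 8524144 to 11375227 counts with T0070907. Levels are given as CPM (counts scaled to library size) after TMM scaling, and a floor of 3 counts corresponded to 0.258 to 0.371 CPM in these 6 libraries. Intervals and floors cover counting error only. Of 7 melanocytic markers, the pigment genes TYR and DCT had 0 counts in all 6 libraries, MLANA had 0 to 4 counts and PMEL 3 to 13 counts. The other 3 were present, SOX10 at 212 to 429 CPM, MITF at 31.4 to 59.6 CPM and S100B at 16.3 to 65.3 CPM. The 4 markers of pigment cells were therefore at 0 or low, while the lineage factors were not. Summed over the markers of each list, fibroblast markers ran from 29.8 to 58.9 CPM with T0070907 and from 19.2 to 43.4 CPM in the combination, and keratinocyte markers from 91.4 to 117 CPM and from 94.2 to 119 CPM. Leukocyte markers ran from 41.2 to 72.9 CPM and from 48.1 to 76 CPM, and the adipocyte markers, of which ADIPOQ had 0 counts, from 4.16 to 5.1 CPM and from 4.82 to 4.94 CPM. The keratinocyte markers KRT1 and TP63 had 0 counts as well. All libraries were of the A375 line, so these sums describe expression in A375 cultures. In bulk RNA, fewer cells with a marker and less RNA per cell cannot be told apart.

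RGZ changed 1185 of 13522 tested genes (8.76%) with T0070907 present, 615 higher (4.55%) and 570 lower (4.22%), at an adjusted p-value under 0.05. These p-values came from the quasi-likelihood test of edgeR, fitted with the experiment number as a block and adjusted by the Benjamini-Hochberg method. Most changes were small: the median size among called genes was 0.33 on the log2 scale, and 58 genes changed by at least 1 (36 higher, 22 lower). Of the 1185 called genes, 1180 moved in the same direction in all 3 experiments, which was the case for 48.3% of all tested genes. In 783 of them the ranges of the combination and the T0070907 libraries did not overlap, against 18.7% of all tested genes. Without the block only 5 genes were called (0.037%, with 2028 at an unadjusted p under 0.05): PLIN2, ACAA2, LPCAT3, COTL1 and TFF2, all of them higher.

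The number of calls depended on single libraries. It fell to 106 without combination library 3, to 168 without T0070907 library 2 and to 215 without T0070907 library 1, and it rose to 3342 without combination library 2. It was 641 without combination library 1, 763 without RGZ library 1, 763 without RGZ library 3 and 738 without vehicle library 3, which enter through the estimate of the spread. With a whole experiment left out, the number was 279 without experiment 1, 2206 without experiment 2 and 18 without experiment 3. Across genes, the log2 changes of single experiments correlated with Spearman's rho of 0.34 (experiments 1 and 2), 0.434 (1 and 3) and 0.337 (2 and 3), a description over 13522 genes that share libraries. Of the 169 called genes that were followed by name, 32 kept their call whichever of the 12 libraries was left out, and 13 of these 32 also kept it without the whole of experiment 3 (all 32 did without experiment 1 and without experiment 2).

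Several genes that PPARγ is known to turn on rose. Of 29 tested genes in a list of PPAR targets, 12 rose with T0070907 present and none fell, and the list's median log2 change was 0.29 against -0.01 over all tested genes. Without T0070907, RGZ raised 17 of the same 29, with a median of 0.50. The list was drawn up with earlier results of these data known, so its direction is not independent evidence.

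ANGPTL4, which encodes a secreted inhibitor of lipoprotein lipase, rose most among called genes whose 6 libraries averaged 1 CPM or more. Its level was 0.578, 0.358 and 0.948 CPM with T0070907 in experiments 1, 2 and 3, and 5.68, 10.8 and 41.6 CPM in the combination. The groups did not overlap, and the library of experiment 3 stood well above the other two combination libraries. The log2 change was 4.88 (SE 0.61, adjusted p = 0.000149). The same gene went from 3.41, 5.24 and 8.35 CPM with vehicle to 384, 451 and 449 CPM with RGZ. In each experiment the T0070907 library lay under the vehicle library, so the rise in the combination began from a level under that of vehicle.

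The lipid droplet coat genes PLIN2 and PLIN4 showed the same arrangement of levels. PLIN2 was at 172, 179 and 178 CPM with T0070907 and at 362, 454 and 737 CPM in the combination (log2 change 1.52, SE 0.13, adjusted p = 6.49e-06). Vehicle gave 365, 389 and 405 CPM and RGZ gave 2097, 2547 and 2477 CPM. RGZ therefore moved PLIN2 from a level under vehicle to one from just under vehicle to above it, with the highest value in experiment 3. PLIN4 was at 1.39, 1.7 and 1.03 CPM with T0070907 and at 5.56, 13.6 and 16.3 CPM in the combination (log2 change 3.14, SE 0.36, adjusted p = 8.07e-05). It was at 5, 10.1 and 6.94 CPM with vehicle, so that the ranges of vehicle and combination overlapped. Of 19 tested genes of lipid droplets and triglyceride handling, 3 were called, the third being AGPAT2, an acyltransferase of phospholipid and triglyceride synthesis (0.45, SE 0.11, adjusted p = 0.0174).

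**Figure D1:**
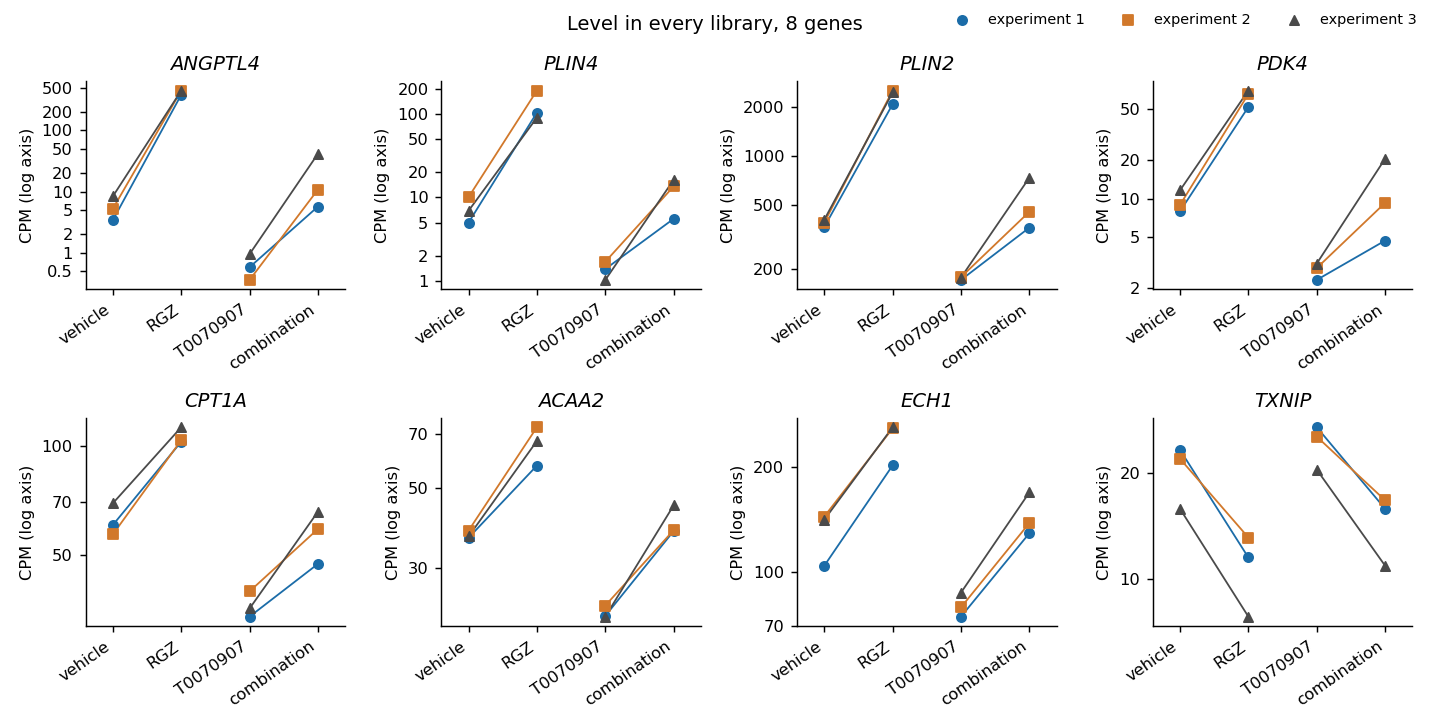
CPM on a log axis in every library for 8 genes, with 1 point per library, the marker giving the experiment and lines joining vehicle to RGZ and T0070907 to the combination within an experiment. In all 7 lipid genes the combination lies above T0070907 in each experiment and under RGZ, for PLIN2 at 362 to 737 CPM between 172 to 179 and 2097 to 2547 CPM, and TXNIP falls in both settings.

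PDK4, a kinase that shuts down pyruvate dehydrogenase and spares glucose when fat is burnt, was at 2.31, 2.86 and 3.1 CPM with T0070907 and at 4.69, 9.26 and 20.5 CPM in the combination (log2 change 2.05, SE 0.29, adjusted p = 0.000441). All 3 combination libraries lay above all T0070907 libraries, again with experiment 3 highest. FABP4, the fatty acid carrier of adipocytes, had 1, 3 and 0 counts with T0070907 and 9, 9 and 25 counts in the combination. Over the summed counts the ratio was 12.1, with an exact 95% interval of 4.41 to 46.5 for counting error, and the fitted log2 change of 3.54 had an adjusted p of 0.0147. RGZ without T0070907 took FABP4 from 1 count in each vehicle library to 1895, 3513 and 1648 counts, so the combination stayed far under RGZ alone. The call of FABP4 was lost in 3 of the 12 fits without 1 library. CD36, a fatty acid transporter with 0 counts in the 3 T0070907 libraries and at most 0.321 CPM in the combination, was not detectably changed at this depth (adjusted p = 0.143).

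Some genes of mitochondrial fatty acid oxidation rose as well. Of 20 tested, 6 were called and all 6 rose, by 0.44 to 0.83 on the log2 scale, and the list's median was 0.24. CPT1A, which commits fatty acids to entry into the mitochondrion, was at 33.7, 39.6 and 35.5 CPM with T0070907 and at 47.2, 59 and 65.9 CPM in the combination (log2 change 0.66, SE 0.09, adjusted p = 0.000327). ACAA2, the thiolase of the last step, was at 22.2, 23.7 and 22.1 CPM and at 38, 38.2 and 44.7 CPM (0.83, SE 0.09, adjusted p = 5.19e-05), beside 36.4, 38.1 and 36.7 CPM with vehicle. The combination thus brought ACAA2 to about the vehicle level from a lower one. ACADVL, the dehydrogenase for very long chains, was at 347, 412 and 367 CPM and at 502, 513 and 580 CPM (0.50, SE 0.06, adjusted p = 0.000123). The carnitine carrier SLC25A20 (0.51) and both subunits of the electron transfer flavoprotein, ETFA (0.47) and ETFB (0.44), were the other 3. ACADM, HADHA and HADHB, which act in the same pathway, changed by 0.07, 0.03 and 0.08 and did not pass the test (adjusted p = 0.577, 0.756 and 0.42).

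In peroxisomes, 2 of 18 tested genes rose, a called share of 11.1% and near the 8.76% of all tested genes. ECH1, an isomerase for unsaturated fatty acids, had the smallest adjusted p of all genes together with PLIN2: it was at 74.3, 79 and 87.1 CPM with T0070907 and at 129, 138 and 169 CPM in the combination (0.86, SE 0.07, adjusted p = 6.49e-06). Its groups did not overlap, and its change with RGZ alone was of the same size (0.89). CAT, which encodes catalase, rose by 0.35 (SE 0.06, adjusted p = 0.00255). The median of the list was 0.08.

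Lipid synthesis genes were tested next. Of 23 sterol synthesis genes, 4 rose (IDI1, FDPS, FDFT1 and INSIG1, by 0.21 to 0.30), and of 15 fatty acid synthesis genes 2 rose. The called shares were 17.4% and 13.3%, against 8.76% of all tested genes. SCD, the desaturase that makes oleate, was at 365, 502 and 316 CPM with T0070907 and at 467, 612 and 427 CPM in the combination (0.36, SE 0.06, adjusted p = 0.00122). Its ranges overlapped between the groups, but it was higher in the combination within each of the 3 experiments. Among 15 LXR targets and phospholipid remodelling genes, NR1H3, which encodes LXRα, rose by 0.85 (SE 0.11, adjusted p = 0.00023) and LPCAT3, which puts polyunsaturated chains into phospholipids, by 0.63 (SE 0.07, adjusted p = 5.19e-05), while LPCAT2 fell by 0.24 (adjusted p = 0.035). LPCAT3 was at 49.3, 50.8 and 51.1 CPM with T0070907 and at 69.4, 77.4 and 86.6 CPM in the combination, ranges that were tight and far apart. LPCAT2 lost its call in 6 of 12 fits without 1 library. After a correction for transcript length no member of this list was called lower.

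**Figure D2:**
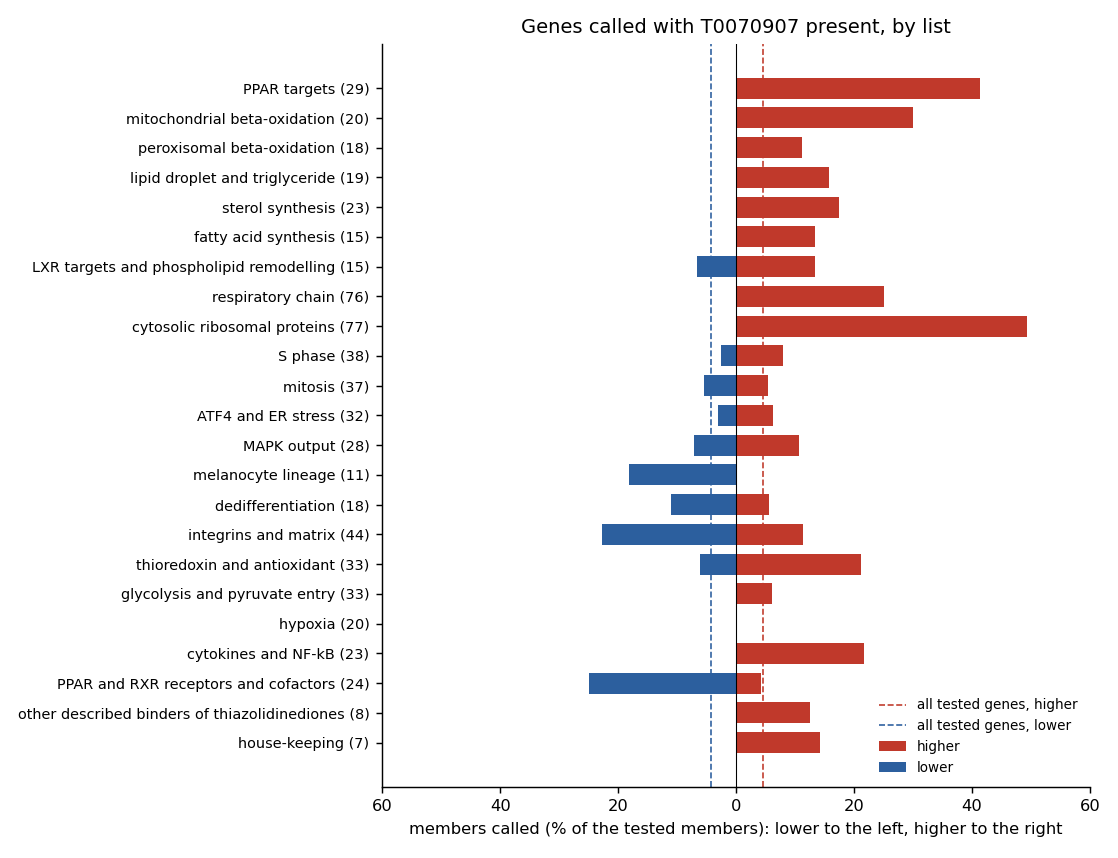
Percent of the tested members of each gene list (number tested in brackets) that were called with T0070907 present, higher to the right and lower to the left, with dashed lines for all tested genes (4.55% higher, 4.22% lower). PPAR targets reach 41.4% and cytosolic ribosomal proteins 49.4% higher, and the receptors and cofactors 25% lower.

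None of the 6 PPAR and RXR genes was called by edgeR or DESeq2, and 3 had an unadjusted p under 0.05 with edgeR. PPARG was at 82.9, 87.5 and 75.4 CPM with T0070907 and at 81.2, 95.6 and 73.1 CPM in the combination (log2 change 0.02, SE 0.06, adjusted p = 0.863). Per kilobase of transcript, PPARG ran from 36 to 47.1 CPM in these 6 libraries, PPARD from 4.37 to 7.8 CPM and PPARA from 0.84 to 1.2 CPM, so PPARG was the most abundant of the 3 by this measure. PPARA, PPARD and RXRG were lower in the combination in each experiment, by log2 changes of -0.32, -0.26 and -0.49 (adjusted p = 0.0955, 0.0747 and 0.0744), and RXRG passed the test after the correction for length (-0.57, adjusted p = 0.0284). Of 24 tested receptors and cofactors, 6 fell: the coactivators NCOA2 (0.68 lower), NCOA3, NCOA6 and MED1 and the acetyltransferases EP300 and CREBBP. EP300 was at 70.7, 68.1 and 64.3 CPM with T0070907 and at 43.7, 50.8 and 46.2 CPM in the combination (-0.52, SE 0.10, adjusted p = 0.00459). TBL1X, a subunit of the corepressor complex, rose by 0.24 (adjusted p = 0.0251). These cofactors have long transcripts, with a list median of 7233 nt against 3655 nt over all tested genes, and transcript length moved with the change. After the correction for length 4 of the 24 were called lower and 1 higher, with a median of -0.11 against -0.20 before it.

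Promoter sequence was compared with the calls. PPAR and RXR bind a direct repeat of AGGTCA spaced by 1 base. RefSeq windows of GRCh38.p14, 250 bases before to 50 after a gene's start, were at hand for 10758 of the 13522 tested genes, and both strands were searched. The half-site AGGTCA was found in 9.62% of all windows, in 11.2% of the 507 windows of genes called higher and in 6.52% of the 460 of genes called lower. It was in 9.45% of the 201 windows of genes called higher both with and without T0070907. The repeat AGGTCANAGGTCA was in 3 windows, none of them of a called gene, and the looser AGGNCANAGGNCA, which contains the stricter one, in 22 (0.204%), among them those of 2 genes called higher and 1 called lower. Those 3 are shown from RefSeq as the called genes whose start carries the repeat. Each run is the 250 bases before the start in the direction of the gene, with a match in capitals. For ATP11A the match reads on the opposite strand. Another match on that strand begins further from the start, overlaps the marked one and is not marked.
CREB3L3, chr19:4153381-4153630, plus strand: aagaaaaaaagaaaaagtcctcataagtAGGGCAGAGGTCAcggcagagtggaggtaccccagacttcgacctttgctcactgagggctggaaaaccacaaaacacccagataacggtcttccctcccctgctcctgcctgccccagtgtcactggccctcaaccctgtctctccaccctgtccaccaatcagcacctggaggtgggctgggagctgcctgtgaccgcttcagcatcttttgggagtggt
RPS3A, chr4:151099378-151099627, plus strand: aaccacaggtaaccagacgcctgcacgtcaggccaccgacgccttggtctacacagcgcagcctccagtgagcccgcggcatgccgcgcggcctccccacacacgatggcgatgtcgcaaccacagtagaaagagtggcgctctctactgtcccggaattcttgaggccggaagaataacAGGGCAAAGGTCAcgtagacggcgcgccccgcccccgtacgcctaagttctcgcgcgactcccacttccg
ATP11A, chr13:112689788-112690037, plus strand: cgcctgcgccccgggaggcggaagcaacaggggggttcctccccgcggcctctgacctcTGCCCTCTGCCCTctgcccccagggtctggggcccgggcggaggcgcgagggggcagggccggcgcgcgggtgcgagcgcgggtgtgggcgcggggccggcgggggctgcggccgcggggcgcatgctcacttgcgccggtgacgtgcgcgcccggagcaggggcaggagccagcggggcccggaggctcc

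CREB3L3, whose match began 222 bases before the start, encodes a membrane-bound transcription factor of lipid metabolism and had 1, 5 and 2 counts with T0070907 and 5, 11 and 22 counts in the combination. Its fitted log2 change was 2.42 (SE 0.57, adjusted p = 0.0179), and the ratio of summed counts was 5.36 (exact 95% interval 2.46 to 13.3, counting error). RGZ alone changed it by 4.55, and its call with T0070907 was lost in 4 of the 12 fits without 1 library. RPS3A, a ribosomal protein gene, rose by 0.27 and ATP11A, a phospholipid flippase gene, fell by 0.45 (adjusted p = 0.0227 and 0.00856), and neither was called for RGZ alone. ANGPTL4, PLIN2, PLIN4, CPT1A, PDK4, ACAA2 and TXNIP had no match to the half-site in the window, which says only that these letters do not stand in these 300 bases.

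TXNIP, the thioredoxin-interacting protein that binds reduced thioredoxin and limits glucose uptake, fell. It was at 26.9, 25.3 and 20.4 CPM with T0070907 and at 15.8, 16.7 and 10.9 CPM in the combination, with no overlap between the groups. The log2 change was -0.75 (SE 0.10, adjusted p = 0.000216), and the call held whichever of the 12 libraries was left out. It was lost without the whole of experiment 3 (-0.68, adjusted p = 0.0784) and without the block (-0.74, adjusted p = 0.261). Without T0070907 it went from 23.2, 21.9 and 15.8 CPM to 11.5, 13.1 and 7.82 CPM (-0.91, adjusted p = 1.49e-05). The difference of both changes was 0.16 (SE 0.15) and did not pass the interaction test (adjusted p = 0.759). For CPT1A that difference was -0.12 (adjusted p = 0.791).

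Of 33 genes of the thioredoxin and antioxidant systems, 7 rose and 2 fell. The 7 were TXN, which encodes thioredoxin, the peroxiredoxins PRDX1, PRDX4, PRDX5 and PRDX6, GPX4 and CAT, by 0.19 to 0.35. TXNRD1, the thioredoxin reductase, fell by 0.25 (adjusted p = 0.0347) beside TXNIP. After a correction for transcript length 2 members were called higher and 2 lower. The house-keeping genes YWHAZ and B2M changed by 0.09 (adjusted p = 0.23) and 0.18 (SE 0.06, adjusted p = 0.0474).

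Interleukin genes rose from very low levels. IL1B, an inflammatory cytokine, had 0, 11 and 1 counts with T0070907 and 12, 87 and 21 counts in the combination. Its log2 change of 3.53 (SE 0.41, adjusted p = 9.16e-05) was larger than the 2.07 found without T0070907, but the difference of 1.46 did not pass its test (adjusted p = 0.383). IL1A was at 0.462, 1.07 and 0.948 CPM with T0070907 and at 2.1, 5.78 and 5.14 CPM in the combination (2.37, SE 0.27, adjusted p = 8.07e-05). Of 23 tested cytokine and NF-kB genes, 5 rose and none fell: these 2 and the chemokines CXCL3 (1.41), CXCL8 (0.44) and CXCL1 (0.33), of which CXCL1 and CXCL3 have near-identical relatives that could share reads. After the length correction 3 members were called higher and 1 lower. IL1A and IL1B kept their calls in all 12 fits without 1 library. CXCL8 lost its call in 10 of these fits, CXCL1 in 7 and CXCL3 in 4. Among 5 leukocyte markers, LYZ was called higher (0.54, SE 0.15, adjusted p = 0.039), while PTPRC and CD3E had at most 2 and 1 counts in any of the 6 libraries. The call of LYZ was lost in 8 of 12 fits without 1 library. No leukocyte marker was called higher after the length correction. IL37, with 2, 2 and 0 counts against 3, 11 and 12, had a ratio of summed counts of 7.33 (exact 95% interval 2.54 to 28.9, counting error) and lost its call in 3 of 12 fits without 1 library.

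Increases outside the lipid lists included TFF2, KRT7 and ABCC3. TFF2, a secreted trefoil peptide, was at 0.693, 0.627 and 1.29 CPM with T0070907 and at 4.82, 3.89 and 6.11 CPM in the combination (2.46, SE 0.30, adjusted p = 0.000125). KRT7, a keratin of simple epithelia, was at 13.1, 26.6 and 9.65 CPM and at 26.2, 47.2 and 24.1 CPM (1.02, SE 0.10, adjusted p = 3.15e-05). The levels of KRT7 differed more between experiments than between treatments, and the rise showed within each experiment. ABCC3, an export pump for conjugated bile acids and drugs, was at 7.97, 12.1 and 6.89 CPM and at 11.9, 34.5 and 19.5 CPM (1.29, SE 0.14). The share of the RGZ change kept was 111% for TFF2, 112% for KRT7 and 113% for ABCC3, the last of which was picked for its high share, as were IL1B, IL37, FYB1 and PPP1R1B. The differences from RGZ alone of 0.25 (SE 0.36), 0.11 (SE 0.14) and 0.15 (SE 0.18) did not pass the interaction test (adjusted p = 0.869, 0.829 and 0.826). HR, a corepressor of nuclear receptors, rose by 0.72, PLAAT3, a phospholipase of adipocytes, by 0.92 and COTL1, an actin-binding protein, by 0.59, all 3 with a change in the same direction without T0070907 (0.84, 1.18 and 0.73).

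Among the other large increases, FYB1, an adaptor protein of blood cells, rose by 2.62 from 2, 7 and 1 counts to 8, 20 and 26 counts. PPP1R1B, which encodes the phosphatase inhibitor DARPP-32, was at 0.693, 0.716 and 0.862 CPM and at 2.59, 2.63 and 6.64 CPM (2.38, SE 0.35, adjusted p = 0.000608). S100P, a calcium-binding protein, rose by 1.89 and lost its call in 2 of the 12 fits without 1 library. RPPH1, the RNA of ribonuclease P, had a fitted change of 3.98 that rested on 1 library: it was at 0.371, 0.526 and 12 CPM in the combination and at 0.116, 0.179 and 0.431 CPM in the T0070907 libraries, and its call was lost in 4 of the 12 fits (highest adjusted p = 0.809).

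The decreases were smaller. UNC5C, a netrin receptor, fell most under the same limit on the level: it was at 6.7, 4.65 and 8.19 CPM with T0070907 and at 2.35, 1.79 and 1.61 CPM in the combination (-1.76, SE 0.23, adjusted p = 0.00022). With vehicle it was at 1.93, 1.43 and 3.65 CPM, so here T0070907 stood above vehicle and the combination within the vehicle range. PLEKHS1 was at 10.7, 3.22 and 13.5 CPM and at 3.83, 1.47 and 4.5 CPM (-1.48, SE 0.20, adjusted p = 0.000327), and lay lower in each experiment, although the ranges of the groups overlapped. NIBAN1, a stress-induced protein, was at 101, 70.8 and 88 CPM and at 65.7, 47.2 and 59 CPM (-0.59, SE 0.06, adjusted p = 5.19e-05), a change of the same size as without T0070907 (-0.57).

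Large decreases were also called in other genes. UNC80, KIF5A, CD200, RAB43, PCDHAC2 and a gene listed by NCBI number 643314 fell by 1.10 to 1.44, and all but UNC80 were not called for RGZ alone. KIF5A, a neuronal kinesin, was at 3.23, 2.42 and 4.05 CPM with T0070907 and at 0.988, 1.68 and 1.61 CPM in the combination. PCDHAC2 is uncertain, since it belongs to a cluster of genes with shared exons and the rule for reads that fit several genes is not given in the sources used here. Each of these 6 lost its call in at least 1 of the 12 fits without 1 library.

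Matrix and adhesion genes moved in both directions. Of 44 tested, 5 rose and 10 fell, with a list median of -0.08. After the length correction 5 were called higher and 6 lower. FN1, which encodes fibronectin, was at 256, 96.9 and 340 CPM with T0070907 and at 148, 59.9 and 257 CPM in the combination (-0.63, SE 0.09, adjusted p = 0.000572). Experiments differed more than treatments, and the fall appeared in each experiment and in all 12 fits without 1 library. The others that fell were the collagens COL1A1, COL5A1 and COL5A2, the laminins LAMA5, LAMB2 and LAMC1, TNC, ITGA11 and MMP8, by 0.21 to 1.33. The integrins ITGA2 (0.66), ITGA3 (0.39) and ITGB5 (0.36) and the protease inhibitors TIMP1 (0.31) and TIMP3 (0.43) rose. COL1A1 and PDGFRB (-0.53), both among the fibroblast markers, fell together, and the part of fibroblast-like expression in this group was not tested.

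The lineage, growth and ER stress lists held from 2 to 5 calls each. The called share was 10.5% for S phase, 10.8% for mitosis and 9.38% for ATF4 and ER stress genes, near the 8.76% of all tested genes. It was 17.9% for MAPK output, 18.2% for melanocyte lineage and 16.7% for dedifferentiation genes, above that share but in lists of 28, 11 and 18 tested genes. Of 11 tested melanocyte lineage genes, TFAP2A (-0.48) and ERBB3 (-0.30) fell, and of 18 genes of dedifferentiation SOX2 rose (0.48) while FN1 and TNC fell. SOX10 changed by -0.13 and MITF by -0.18, and neither passed the test (adjusted p = 0.161 and 0.148). Of 28 MAPK output genes, PHLDA1 (0.45), ETV4 (0.24) and AREG (2.71, from 1, 4 and 0 counts to 3, 18 and 9 counts) rose and ETV5 (-0.27) and SPRY4 (-0.23) fell. MKI67, the proliferation marker, was at 607, 457 and 470 CPM with T0070907 and at 389, 397 and 395 CPM in the combination (-0.36, SE 0.08, adjusted p = 0.0107), and CENPF fell by 0.31, while MAD2L1 and PTTG1 rose by 0.23 and 0.27, which left 2 up and 2 down of 37 mitosis genes. Of 38 S phase genes, 3 rose and 1 fell. After the length correction none of the S phase genes was called higher and 1 lower, and 2 mitosis genes were called higher and 4 lower. Of 32 ATF4 and ER stress genes, HSPA5 (0.23) and HSP90B1 (0.19), the main ER chaperones, rose and ALDH1L2 (-0.41) fell. Among 33 glycolysis and pyruvate entry genes PDK4 and MPC2 (0.30) rose, a called share of 6.06% and under that of all tested genes. MPC2, a subunit of the mitochondrial pyruvate carrier, was also on the list of genes whose products other than PPARγ are described to bind thiazolidinediones. It was the only 1 called of the 8 tested there (12.5%). None of 20 tested hypoxia genes was called by edgeR or DESeq2, and 2 had an unadjusted p under 0.05 with edgeR.

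Calls were also made among genes of protein synthesis and respiration, each of small size. Of 77 tested cytosolic ribosomal protein genes, 38 rose and none fell, by 0.21 to 0.42, and of 76 tested respiratory chain genes 19 rose and none fell, by 0.23 to 0.51. None of these 57 calls was kept in all 12 fits without 1 library: the ribosomal genes kept theirs in 3 to 9 fits and the respiratory genes in 4 to 9. Neither list had a call without T0070907 by edgeR or DESeq2 (13 and 8 members had an unadjusted p under 0.05 with edgeR), and their medians there were 0.14 and 0.09 against 0.25 and 0.22. None of their members passed the interaction test by edgeR or DESeq2 (1 and 5 at an unadjusted p under 0.05 with edgeR). RPL36 was at 601, 664 and 688 CPM with T0070907 and at 982, 752 and 824 CPM in the combination (0.39, SE 0.10, adjusted p = 0.0222). COX4I1, a subunit of cytochrome c oxidase, was at 354, 366 and 408 CPM and at 506, 422 and 462 CPM (0.31, SE 0.08, adjusted p = 0.0255). In both genes the combination library of experiment 1 was the highest. By experiment, the ribosomal list had medians of 0.47, 0.11 and 0.18 and the respiratory list of 0.44, 0.11 and 0.12. Ribosomal protein genes have many processed copies in the genome, and how reads that fit several places were counted is not given in the sources used here.

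These genes have short transcripts, and the change with T0070907 present followed transcript length. The median log2 change was 0.14 in the shortest of 5 equal groups of genes by transcript length (64 to 2125 nt) and -0.15 in the longest. Of the shortest group 11.4% were called higher and 0.413% lower, and of the longest 1.65% higher and 13.3% lower. In experiment 1 the medians went from 0.28 to -0.27, in experiment 2 from 0.07 to -0.07 and in experiment 3 from 0.10 to -0.09. Without T0070907 they went from 0.06 to -0.07. After each library was corrected for length, 992 genes were called, 595 higher (4.4%) and 397 lower, and 661 of the 1185 genes were among them. Of the 77 ribosomal protein genes 26 and of the 76 respiratory genes 13 were then called higher, with medians of 0.14 and 0.09. PPAR targets had 13 calls and a median of 0.33 after the correction. What produced the length trend was not tested.

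**Figure D3:**
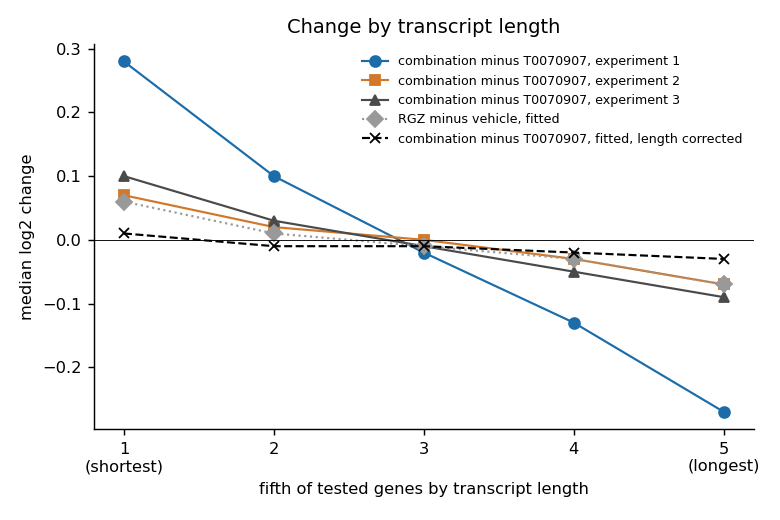
Median log2 change of the tested genes in 5 equal groups by transcript length, for the combination against T0070907 in each experiment (single libraries, solid lines), for RGZ against vehicle (fitted, dotted) and for the fit corrected for length (dashed). Experiment 1 has the steepest slope, from 0.28 to -0.27, and the corrected fit runs from 0.01 to -0.03.

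The changes with and without T0070907 pointed the same way for most genes. RGZ without T0070907 changed 1258 genes (9.3% of 13522 tested), and 1175 of them (93.4%) had a change of the same sign with T0070907 present, against 69.8% of all tested genes. Both comparisons called 410 genes, 34.6% of the 1185 and 32.6% of the 1258, and 409 of the 410 moved in the same direction. The contrasts use different libraries, but both came from 1 fit of all 12 libraries with a shared estimate of the spread. With only the groups compared in each fit, 706 genes were called with T0070907 and 2758 for RGZ alone. Of the 706, 474 (67.1%) were called in both. In the fit of all libraries, 775 genes were called with T0070907 only. Of these, 708 had the same sign without it, 201 had an unadjusted p under 0.05 there, and in none was the difference itself called. Both sets rested on single libraries. The number called only with T0070907 was 16 without combination library 3, 26 without T0070907 library 2, 29 without T0070907 library 1, 194 without combination library 1, 461 and 467 without RGZ library 1 and 3, 478 without vehicle library 3 and 2545 without combination library 2. The genes called in both made up 84.9%, 84.5%, 86.5% and 69.7% of those called with T0070907 in the first 4 of these fits and 23.8% in the last. Of the 775 genes in the fit of all libraries 335 were called after the length correction, and of the 410 genes 326.

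**Figure D4:**
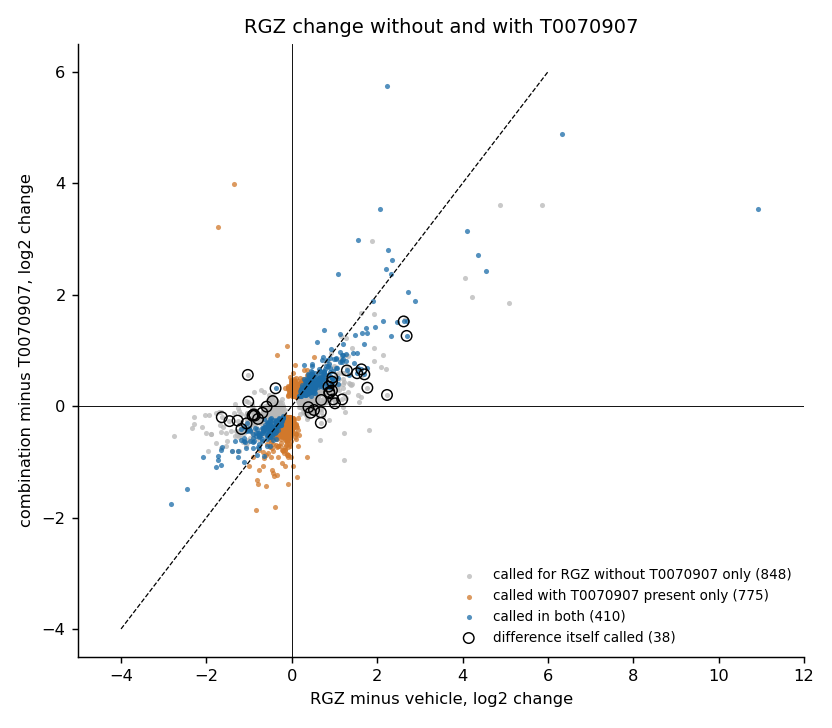
Fitted log2 change of RGZ against vehicle (horizontal) and of the combination against T0070907 (vertical) for the genes called in either comparison, 1 point per gene, with a dashed line where both are equal. Of the genes called in both, 409 of 410 lie in the quadrants of equal sign, and the 38 ringed genes are those whose difference was called.

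Genes called with T0070907 and not for RGZ alone changed by at most about 1 on the log2 scale among those of at least 10 CPM. CITED4, a coactivator-binding protein, led the increases (0.60, SE 0.12, adjusted p = 0.0102, against 0.02 without T0070907), with 15.2, 25.1 and 18.8 CPM against 31.3, 31.8 and 26.6 CPM. The groups did not overlap, and vehicle (18.5, 33.8 and 18.9 CPM) and RGZ (20.4, 30.8 and 20.7 CPM) lay close to each other within experiments. PAX8-AS1 (0.56), AZIN2 (0.51), ATP5F1E (0.51) and NANOS1 (0.49) followed, of which PAX8-AS1 is an antisense RNA whose reads cannot be told from those of its partner where strand is not stated. RAD54L2, a DNA-dependent helicase gene, led the decreases: it was at 18.6, 13.3 and 10.7 CPM with T0070907 and at 6.55, 6.1 and 7.82 CPM in the combination (-1.03, SE 0.18, adjusted p = 0.004). MAML2 (-0.74), ZKSCAN1 (-0.72) and TSPAN11 (-0.72) were next. Only RAD54L2 of these 9 kept its call in all 12 fits without 1 library, and for none of them was the difference from RGZ alone called.

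How much of the RGZ change was kept could be read for the 211 genes that RGZ alone changed by at least 1 on the log2 scale. With T0070907, 202 of them had the same sign and 79 were called. The median share kept, the log2 change with T0070907 as a percentage of that without it, was 42.3% (quartiles 26.6 and 63.9). It was 54% for the 118 genes that RGZ raised, 55 of them called, and 35% for the 93 it lowered, 24 of them called. The share differed between experiments, with medians of 28.9%, 35.5% and 60.6% in experiments 1, 2 and 3 (SD 16.7 over the 3 experiments). In experiment 3 the combination library was also the highest of the 3 for ANGPTL4, PLIN2, PLIN4, PDK4, CPT1A and FABP4. By the size of the RGZ change, the share of genes also called with T0070907 in the same direction was 22.1%, 29.3%, 37.5% and 33.1% in the classes up to 0.25, 0.5, 1 and 2 and 56.4% of the 39 genes above 2. The median share kept in these classes was 59.9%, 52.7%, 46.6%, 40.6% and 56.8%.

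**Figure D5:**
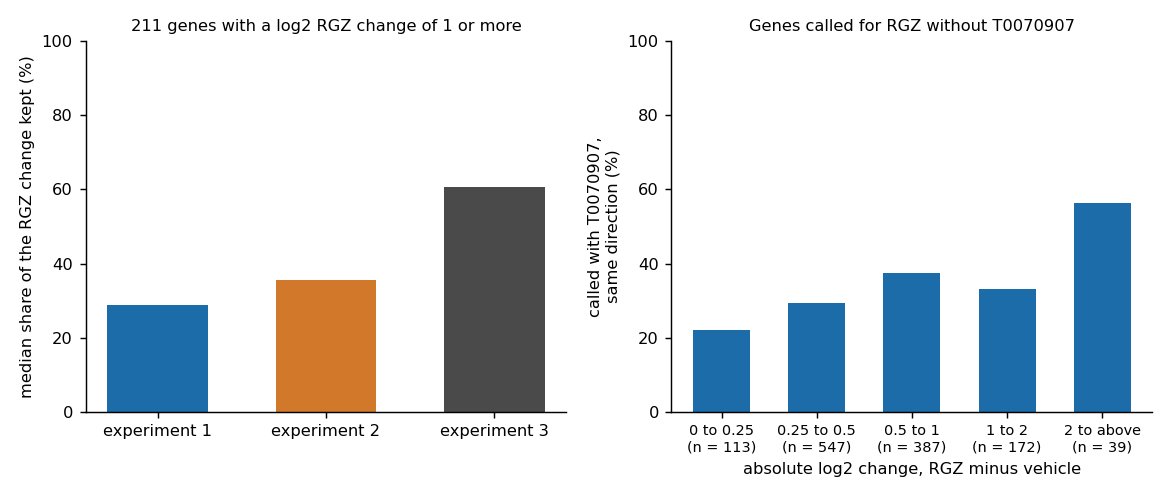
Left, median share of the RGZ change kept with T0070907 (percent) in each experiment over 211 genes. Right, percent of the genes called for RGZ alone that were also called in the same direction with T0070907, by the absolute log2 RGZ change, with the number of genes under each bar. Experiment 3 reaches 60.6%, and the class above 2 reaches 56.4%.

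The difference between both changes passed the interaction test in 38 genes (0.281%), 12 of which were also called with T0070907. The count rested on single libraries: it was 1 without T0070907 library 1, vehicle library 2 or vehicle library 3, 4 without RGZ library 2, 6 without T0070907 library 2, 10 without RGZ library 1 or vehicle library 1, 13 without RGZ library 3 and 22 without T0070907 library 3, and it was 105 without combination library 1 and 149 without combination library 2. In all 38 the change was smaller with T0070907, and in 9 it had the other sign. PLIN2 was among them (-1.10, SE 0.18, adjusted p = 0.0301), as were the PPAR targets ACSL3 (-0.44), an acyl-CoA synthetase, and AQP3 (-1.13), a glycerol channel, and the integrin gene ITGA2 (-0.97), each of which still rose with T0070907. MGP, a matrix inhibitor of calcification, was at 3.93, 3.13 and 8.01 CPM with T0070907 and at 3.83, 7.47 and 10.6 CPM in the combination (0.56, adjusted p = 0.0702) and fell by 1.03 without T0070907 (difference 1.59, adjusted p = 0.0452). LOXL4, a lysyl oxidase gene named here after its values were seen because it alone passed an adjusted threshold of 0.01, had 292 ± 80.3 CPM (SD, n = 3) with T0070907 and 234 ± 55.8 CPM in the combination, and 206 ± 40.8 CPM with vehicle and 99.2 ± 20.5 CPM with RGZ. LOXL4 fell by 0.31 with T0070907 and by 1.06 without it (difference 0.75, SE 0.08, adjusted p = 0.000594). For ANGPTL4, FABP4 and PLIN4 the differences of -1.44, -7.38 and -0.97 did not pass this test (adjusted p = 0.741, 0.173 and 0.569). The SEs of these differences were 1.18, 2.02 and 0.53, and a missed threshold does not show that the change was kept. The genes with the lowest share kept, LOXL1, HAS2, FRMPD4 and SBSN beside MGP, changed by -0.49, -0.43, 0.09 and -0.11 with T0070907, and none passed the test.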

How the data were processed

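For 12 libraries (TruSeq RNA, HiSeq 2000) the deposited table holds whole-number counts by gene, which the authors had not normalized. The submitters' processing notes name hg19, and the aligner, counter, strand setting and multiple-read rule are not given in the sources used here. All 23705 genes are NCBI gene numbers, of which 23538 matched a RefSeq symbol. The table held 0 columns of other samples. Groups and experiment numbers came from the sample titles.

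The fits used edgeR 4.0.16 under R 4.3.3 (TMM scaling, filterByExpr, quasi-likelihood test) over all 12 libraries, with the 4 conditions as groups and the experiment number as a block. Contrasts were combination minus T0070907, RGZ minus vehicle and their difference (the interaction). Genes with a Benjamini-Hochberg adjusted p under 0.05 were called. The standard error of a log2 change is approximate and was taken from the change and its F statistic. The numbers pair the libraries. Deviations from the mean of each condition correlated at 0.162, 0.735 and 0.697 between same-numbered combination and T0070907 libraries of experiments 1, 2 and 3. Between differently numbered libraries the correlations ran from -0.684 to 0.0856, and deviations from a mean of 3 push these below 0. The value of experiment 1 stood little above the highest of them. With the block, p-values measure how much the changes between conditions varied over the 3 experiments of 1 line. Differences shared by all conditions of an experiment were taken out. The totals of 8319455 to 11375227 counts limit the precision of genes near the floor.

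The members, the gene lists and the rule for naming genes were chosen with earlier results of these data known. Genes were named by rule: 6 that the study discusses here, the 10 largest increases and decreases of at least 1 CPM with the same direction in all experiments, the 5 smallest p-values in each direction, the 5 largest changes each way of at least 10 CPM not called for RGZ alone, genes of opposite direction, genes called without the block, the 5 lowest and highest shares kept, and list members. Some genes of these rules are not reported here. Alternatives were DESeq2 1.42.0 and its size factors, limma-voom (limma 3.58.1), other filters and thresholds, thinning to the smallest total, only the groups compared, no block, corrections for GC content and length of the longest annotated transcript (known for 98.4% of tested genes, span 0.3), and leaving out each library or experiment. Each test was first run on simulated counts. Ratios of summed counts have exact (Clopper-Pearson) 95% intervals.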

Additional observations from a re-analysis of the deposited data

Results flagged for a closer look

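The RGZ change differed between cells with and without T0070907, by the interaction test with the replicate block, in 38 genes, and in all 38 it was smaller with T0070907. Among the genes followed by name, the change with T0070907 minus the change without it was -1.10 for PLIN2, -0.44 for ACSL3, -1.13 for AQP3 and -0.97 for ITGA2, which rose in both settings. It was 1.59 for MGP, which fell without T0070907 and did not pass the test with it. The 38 fell to 1 without T0070907 library 1, vehicle library 2 or vehicle library 3 and rose to 149 without combination library 2. With the replicate block left out, none of these differences passed the threshold.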

How the results depend on the processing

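The lowest count with T0070907 came without the replicate block, where 5 genes were called with T0070907 present, 167 for RGZ alone, 0 for the interaction and 5 in both settings. At an adjusted p under 0.01 these counts were 196, 696, 1 and 143. With no filter on low counts, 1805 genes were called with T0070907 and 150 for the interaction. In fits of only the groups compared, 706 were called with T0070907 and 2758 for RGZ alone. The interaction count was 21 with limma-voom, 21 after thinning and 110 with the length correction. The cause of these shifts was not tested. Leaving out 1 library or experiment gave 18 to 3342 genes called with T0070907, 400 to 2044 for RGZ alone, 1 to 149 for the interaction and 15 to 797 in both. The median share kept stayed between 35.7 and 51.1% in those fits. Of 176 named genes, 139 kept their side of the threshold and 13 lost their call with DESeq2, which gave no adjusted p for the rest, while the side was the same for 159 with limma-voom and 117 with the length correction, and 12 without the block. Uncalled genes changed sign: PPARG was -0.07 with the length correction and -0.04 to 0.07 in fits without a library or experiment, where FRMPD4 ran from -0.20 to 0.36 and SBSN from -0.17 to 0.55. Depth limits genes near the floor of 3 counts.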
